A study of Arabidopsis thaliana with 24 samples.

Results

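Whole Arabidopsis thaliana seedlings grown outdoors in 2 summers were compared 4 h after dawn, at zeitgeber time 4 (ZT4). The comparison set the 3 libraries titled natural LD (2014) ZT04 against the 3 titled natural LD (2013) ZT04, so 6 of the series' 24 libraries entered it. These groups are called natural 2014 and natural 2013. The study asked how flowering is controlled under natural long days, and its other libraries came from the same outdoor settings in the evening (ZT16) and from 2 indoor settings at both times. Of the indoor settings, lab LD was standard laboratory long days, and LD+FR+TEMP was long days with far-red light and a temperature cycle.

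Natural 2014 seedlings stood outdoors in July 2014 and natural 2013 seedlings in June 2013. Both groups were 14 days old, grew on soil in an open cage after cold treatment of the seeds, and were shaded by a double layer of garden fabric that lowers sunlight without altering its ratio of red to far-red light. The labels name no transgene, mutation or strain for either group. The labels give no weather for the sampling days and do not say whether the replicates were separate plantings. The p-values thus measure only the spread between libraries within groups. That spread was estimated over all 24 libraries, indoor and evening ones included, and not from the 6 libraries alone. Year, calendar month, weather and any difference in handling between the years cannot be told apart.

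Plants answer heat through heat shock transcription factors, which bind repeated GAA units in promoters and switch on chaperones, the proteins that hold, refold or dissolve damaged proteins. Ultraviolet-B acts through the photoreceptor UVR8 and the transcription factor HY5, which turns on genes for flavonoid sunscreens. Growth of stems and leaf stalks under shade or warmth runs through PIF factors and auxin, and the time of flowering through FT, the mobile signal made in leaves.

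Total counts were 7175100, 8268281 and 8004722 in natural 2014 replicates 1, 2 and 3, and 9259330, 6841485 and 9775572 in natural 2013. The first principal component of the 6 libraries held 64.6% of the variance and separated the years, with scores of 68.9, 30.6 and 48.3 in natural 2014 and -43.7, -49.4 and -54.8 in natural 2013. The second held 11.7% and set replicate 1 of natural 2014, at -36.8, apart from replicates 2 and 3, at 30.1 and 19.2. That library is named below wherever a value rests on it.

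Of 18797 genes tested with edgeR's quasi-likelihood test at an adjusted p below 0.05, 3110 (16.5%) were higher and 2724 (14.5%) were lower in natural 2014 than in natural 2013, together 31.0%. At least 2-fold differences numbered 646 higher (3.44%) and 1140 lower (6.06%). Counted by overlap instead, 4129 genes (22.0%) had all 3 natural 2014 libraries above all 3 natural 2013 libraries and 3892 (20.7%) had them below. Outside the heat and flowering lists, most called genes named below were chosen from these. Their lack of overlap was thus fixed by the choice. The split depends on the scaling. With library sizes alone, in place of TMM factors, 1790 genes were higher and 4277 lower, and the median of all genes moved by -0.17 on the log2 scale. The TMM factors were 0.825 to 0.847 in natural 2014 and 0.933 to 0.949 in natural 2013. Expression is given as CPM, the read count relative to the scaled library size, fold changes as log2 of natural 2014 over natural 2013, and values after ± as standard errors unless marked SD. In whole seedlings, fewer cells of a type and less RNA per cell cannot be told apart.

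**Figure D1:**
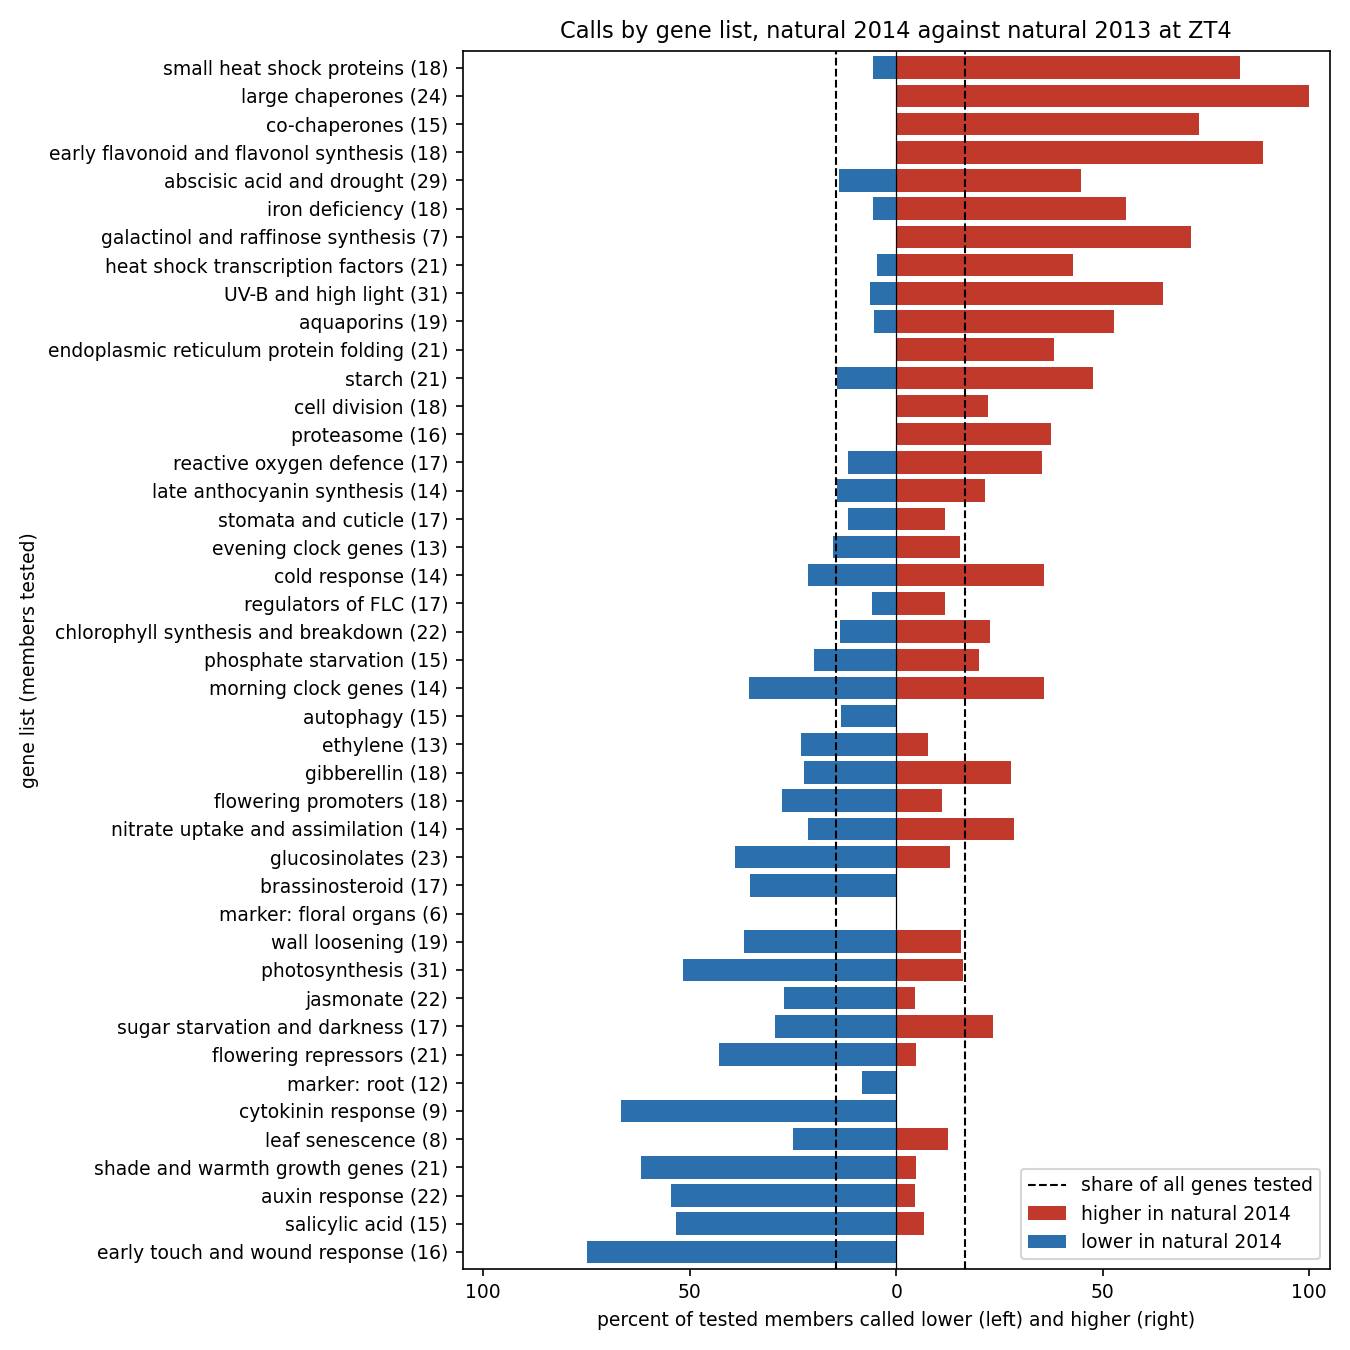
Gene lists at ZT4: for each list, the bars give the percentage of tested members called higher (right) and lower (left) in natural 2014 than in natural 2013, lists run by their median log2 fold change, and dashed lines mark the shares of all genes, 16.5% and 14.5%. Large chaperones reach the right edge with 24 of 24 members, while touch and wound genes reach farthest left with 12 of 16.

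Heat shock genes were higher in natural 2014. Of 21 tested genes for heat shock factors and their partners, 9 were higher, 1 was lower and 11 did not pass, with a median log2 fold change of 0.81 against 0.00 over all genes. HSFA2, the heat-induced factor that prolongs the response, had 679, 173 and 349 CPM in natural 2014 and 0.809, 0.784 and 1.83 CPM in natural 2013. Replicate 1 was the highest of natural 2014 and replicate 2 the lowest, and all 3 lay far above every natural 2013 library (log2 fold change 8.38 ± 0.46, adjusted p = 2.3e-12; 7.76 without replicate 1 of natural 2014). HSFA7A, another heat-induced activator, had 92.7, 17.57 and 28.0 CPM in natural 2014 and 2.43, 1.57 and 1.94 CPM in natural 2013. Its groups did not overlap either (log2 fold change 4.50 ± 0.47, adjusted p = 5.2e-08; 3.49 without replicate 1 of natural 2014).

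MBF1C, a coactivator needed for basal heat tolerance, had 2103, 498 and 1124 CPM in natural 2014 and 30.3, 21.3 and 19.9 CPM in natural 2013. All natural 2014 libraries stood above all natural 2013 libraries (log2 fold change 5.70 ± 0.33, adjusted p = 3.3e-12; 5.08 without replicate 1 of natural 2014). DREB2A, a factor of drought and heat responses, had 23.48, 11.3 and 19.1 CPM in natural 2014 and 1.27, 1.57 and 1.08 CPM in natural 2013, a 13.8-fold difference with no overlap (adjusted p = 1.6e-08). The 4 class B factors tested rose too. HSFB1 and HSFB2B are known as repressors of heat genes, and whether they acted as such here was not tested. HSFB1 had 346, 105.3 and 197 CPM in natural 2014 and 21.6, 15.8 and 14.9 CPM in natural 2013, again with no overlap (log2 fold change 3.62 ± 0.26, adjusted p = 1.3e-10), and HSFB2B rose by 3.14 ± 0.17, HSFB2A by 1.92 ± 0.25 and HSFB4 by 1.05 ± 0.19 on the log2 scale. HSFB3, not tested for low counts, was read 0, 0 and 0 times in natural 2014 and 2, 1 and 2 times in natural 2013.

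None of the 3 constitutive activators tested, which start the response, passed. HSFA1D had 7.77, 5.0 and 7.73 CPM in natural 2014 and 5.43, 4.70 and 5.83 CPM in natural 2013, and these ranges overlapped (log2 fold change 0.34 ± 0.21, adjusted p = 0.24). HSFA1E (0.81 ± 0.34) and HSFA1B (-0.37 ± 0.28) did not pass either. HSFA4A, an activator linked to oxidative stress, was the 1 tested factor of the list that fell, with 1.86, 1.43 and 3.18 CPM in natural 2014 and 5.55, 7.05 and 6.04 CPM in natural 2013 (log2 fold change -1.51 ± 0.34, adjusted p = 0.0012). Among the factors not tested for low counts, HSFA1A, a further constitutive activator, was read 3, 1 and 4 times in natural 2014 and 7, 9 and 7 times in natural 2013, and HSFA7B was read 25, 0 and 7 times in natural 2014 and not at all in natural 2013. HSFA6B, DREB2B and DREB2C held no more than 6 counts in either group and were not read.

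The 250 bases before the gene starts were searched for 3 alternating GAA units, that is GAANNTTCNNGAA or TTCNNGAANNTTC, which between them cover both strands. This heat shock element stood in 78 of 18720 promoters of tested protein-coding genes (0.417%), in 15 of 640 genes higher by at least 2-fold (2.34%), in 8 of 89 higher by at least 8-fold (8.99%), in 5 of 1140 lower by at least 2-fold (0.439%) and in 40 of 12895 genes not called (0.310%). An element of 2 units, GAANNTTC or TTCNNGAA, stood in 2934 of all 18720 promoters, in 120 of 640 genes higher by at least 2-fold (18.8%), in 28.1% of those higher by at least 8-fold, in 17.3% of genes lower by at least 2-fold and in 15.5% of genes not called. Among the heat lists the element of 3 units was found before HSFA2, HSFA7A, DREB2A, HSP17.4 and AT1G53540, and before none of the 24 large chaperones or 15 co-chaperones. Windows were placed by the annotated gene starts, so some, as that of HSP90.1, can hold transcribed bases. Elements farther upstream were not searched for. The 5 windows are shown because their genes are among the heat genes described here. They run 5′ to 3′ on the gene's strand, with the element in capitals, from the RefSeq sequence of TAIR10.1, and a match is a description and no evidence of binding. The element nearest to the gene start lay 76 bases from it in HSFA2, 130 in HSFA7A, 152 in DREB2A, 6 in HSP17.4 and 41 in AT1G53540.
HSFA2, chr2:11135374-11135623, plus strand: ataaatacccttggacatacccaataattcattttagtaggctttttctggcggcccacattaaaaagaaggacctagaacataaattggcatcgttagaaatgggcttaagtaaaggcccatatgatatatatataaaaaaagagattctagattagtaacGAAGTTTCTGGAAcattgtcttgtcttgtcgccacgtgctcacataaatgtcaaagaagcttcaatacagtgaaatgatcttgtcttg
HSFA7A, chr3:19264891-19265140, plus strand: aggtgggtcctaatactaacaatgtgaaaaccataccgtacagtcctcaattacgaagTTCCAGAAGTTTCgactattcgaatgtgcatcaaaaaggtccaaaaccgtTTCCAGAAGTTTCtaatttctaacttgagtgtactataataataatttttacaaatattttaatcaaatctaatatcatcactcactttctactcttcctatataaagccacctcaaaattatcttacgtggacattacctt
DREB2A, chr5:1601955-1602204, plus strand: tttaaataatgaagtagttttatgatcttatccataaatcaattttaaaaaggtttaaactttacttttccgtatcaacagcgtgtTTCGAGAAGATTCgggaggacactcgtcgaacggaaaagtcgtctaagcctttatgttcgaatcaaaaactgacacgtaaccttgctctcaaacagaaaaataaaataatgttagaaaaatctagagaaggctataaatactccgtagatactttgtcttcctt
HSP17.4, chr3:16984868-16985117, minus strand: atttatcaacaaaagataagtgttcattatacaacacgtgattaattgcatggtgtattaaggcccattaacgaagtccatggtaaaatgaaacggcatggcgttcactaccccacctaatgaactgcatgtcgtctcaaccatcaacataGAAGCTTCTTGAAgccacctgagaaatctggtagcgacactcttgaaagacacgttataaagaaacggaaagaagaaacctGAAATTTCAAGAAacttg
AT1G53540, chr1:19980049-19980298, plus strand: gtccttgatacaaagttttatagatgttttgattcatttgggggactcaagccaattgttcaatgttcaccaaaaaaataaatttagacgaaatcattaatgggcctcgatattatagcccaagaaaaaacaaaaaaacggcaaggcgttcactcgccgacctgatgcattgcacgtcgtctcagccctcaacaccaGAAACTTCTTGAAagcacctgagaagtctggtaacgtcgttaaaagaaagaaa

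Small heat shock proteins, which hold unfolding proteins until larger chaperones refold them, held 9 of the 12 largest rises over all genes. Of 18 tested genes 15 were higher and 1 was lower, with a median log2 fold change of 7.23 (5.57 without replicate 1 of natural 2014). Their summed expression was 22250, 1621 and 5955 CPM in natural 2014 and 207, 154 and 140 CPM in natural 2013. Replicate 1 of natural 2014 thus held the bulk of the sum, yet the lowest library of natural 2014 still exceeded the highest of natural 2013. Near-identical copies exist in this family, and how reads that match several were counted is not stated in the sources used here, so values of single members are less certain than the sum.

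HSP17.6II, a cytosolic class II member, had 3480, 200 and 860 CPM in natural 2014 and 7.05, 3.29 and 1.73 CPM in natural 2013. Replicate 1 was again the highest (log2 fold change 8.55 ± 0.79, adjusted p = 7.4e-09; 7.03 without it, 9.30 without replicate 1 of natural 2013). HSP22.0, which works in the endoplasmic reticulum, had 109, 0.857 and 32.1 CPM in natural 2014 and 0.809, 0 and 0 CPM in natural 2013. The lowest natural 2014 library barely exceeded the highest natural 2013 library (log2 fold change 7.30 ± 1.1, adjusted p = 1.8e-05; 5.79 without replicate 1 of natural 2014 and 6.63 without replicate 3 of natural 2013). Without replicate 1 of natural 2013 that group held no read of it, so no fold is given. HSP23.6, the mitochondrial member, was read 6999 times in natural 2014 and 3 times in natural 2013, a ratio of 2900 with a 95% counting interval of 993 to 14100. AT1G07400 was the steepest of those with more than 3 counts in natural 2013, with 3112, 197 and 695 CPM in natural 2014 and 2.54, 2.35 and 1.62 CPM in natural 2013 (log2 fold change 9.27 ± 0.75, adjusted p = 8.3e-10; 7.69 without replicate 1 of natural 2014).

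HSP17.4 had 1930, 46.7 and 338 CPM in natural 2014 and 3.81, 1.25 and 0.324 CPM in natural 2013 (log2 fold change 8.72 ± 0.97, adjusted p = 1.5e-07; 6.72 without replicate 1 of natural 2014, 10.06 without replicate 1 of natural 2013). AT1G53540 had 2001, 44.0 and 376 CPM in natural 2014 and 5.43, 0.627 and 0.647 CPM in natural 2013 (log2 fold change 8.43 ± 0.97, adjusted p = 2.6e-07; 6.48 without replicate 1 of natural 2014, 10.28 without replicate 1 of natural 2013). These are the pair whose promoters are printed above, and neither overlapped between years. HSP18.2 had the smallest rise in the family, with 112, 10.6 and 62.3 CPM in natural 2014 and 13.4, 5.80 and 4.101 CPM in natural 2013. Here the groups overlapped (log2 fold change 2.96 ± 0.64, adjusted p = 7.9e-04; 2.21 without replicate 1 of natural 2014, 3.66 without replicate 1 of natural 2013). AT4G21870 went the other way, with 11.2, 18.6 and 11.5 CPM in natural 2014 and 33.5, 32.6 and 39.2 CPM in natural 2013 (log2 fold change -1.35 ± 0.24, adjusted p = 8.6e-05).

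**Figure D2:**
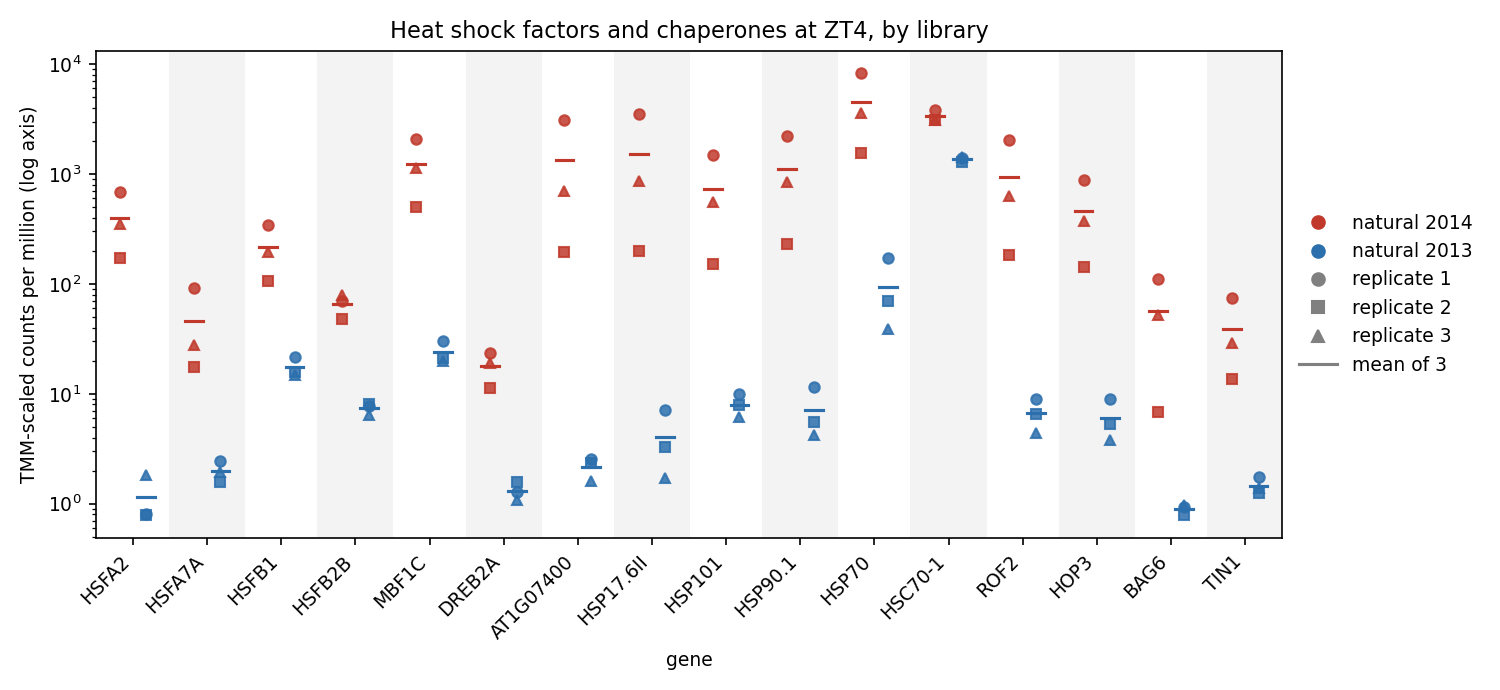
Heat shock genes by library at ZT4: CPM on a log axis for each gene, with natural 2014 to the left of natural 2013 and 1 point for each library. Every gene drawn has all 3 natural 2014 libraries above all 3 natural 2013 libraries, with replicate 1 of natural 2014 on top in most. HSP18.2, whose groups overlapped, is not drawn.

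All 24 large chaperones were higher in natural 2014, at a median log2 fold change of 1.86, against 16.5% of all genes. HSP101, the disaggregase that pulls proteins out of clumps, had 1490, 151 and 556 CPM in natural 2014 and 9.94, 7.84 and 6.15 CPM in natural 2013. HSP90.1, the heat-induced cytosolic HSP90, had 2224, 228 and 847 CPM in natural 2014 and 11.6, 5.49 and 4.21 CPM in natural 2013. Both were separated by year and both were highest in replicate 1 of natural 2014. HSP101 rose 91.8-fold (log2 fold change 6.52 ± 0.51, adjusted p = 5.5e-10; 5.47 without that library) and HSP90.1 rose 154-fold (log2 fold change 7.26 ± 0.57, adjusted p = 4.9e-10; 6.23 without it). HSP70, the heat-induced cytosolic form, had 8320, 1566 and 3607 CPM in natural 2014 and 172, 69.3 and 39.2 CPM in natural 2013 (log2 fold change 5.58 ± 0.53, adjusted p = 1.1e-08; 4.78 without replicate 1 of natural 2014, 6.39 without replicate 1 of natural 2013).

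Housekeeping and organelle chaperones rose with them, by less. HSP90.2, a cytosolic form present without heat, had 4556, 1613 and 2377 CPM in natural 2014 and 412, 409 and 383 CPM in natural 2013, with no overlap (log2 fold change 2.83 ± 0.22, adjusted p = 4.5e-10). HSC70-1, the abundant cytosolic HSP70, had 3807, 3111 and 3095 CPM in natural 2014 and 1409, 1289 and 1440 CPM in natural 2013 (log2 fold change 1.27 ± 0.12, adjusted p = 6.3e-09). In mitochondria, CLPB4 rose by 3.43 ± 0.34 (2.59 without replicate 1 of natural 2014) and HSP60 by 2.02 ± 0.20. In chloroplasts, CLPB3 rose by 1.68 ± 0.24, HSP90.5 by 1.84 ± 0.17 and the Rubisco chaperonin subunit CPN60A by 1.35 ± 0.12. The smallest change of the list was that of the mitochondrial MTHSC70-1, at 0.58 ± 0.10 (adjusted p = 3.4e-05).

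Co-chaperones, which steer the HSP70 and HSP90 machines, were higher in 11 of 15 cases, and none was lower. ROF2, an immunophilin that binds HSP90, had 2021, 185 and 634 CPM in natural 2014 and 8.90, 6.58 and 4.42 CPM in natural 2013, with replicate 1 on top and no overlap (log2 fold change 7.16 ± 0.57, adjusted p = 5.8e-10; 5.95 without replicate 1 of natural 2014). HOP3, which links HSP70 to HSP90, had 877, 141 and 372 CPM in natural 2014 and 9.02, 5.33 and 3.78 CPM in natural 2013 (log2 fold change 6.25 ± 0.47, adjusted p = 2.1e-10; 5.40 without that library). Its relative HOP1 did not pass (0.19 ± 0.12). BAG6 rose by 5.94 ± 0.67 (5.0 without replicate 1 of natural 2014), FES1A, a nucleotide exchange factor of HSP70, by 4.16 ± 0.33 (3.43), and HSA32, needed to keep acquired heat tolerance, by 3.58 ± 0.49 (2.42; 4.16 without replicate 1 of natural 2013).

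Protein folding in the endoplasmic reticulum changed in part. Of 21 genes 8 were higher and none was lower, with 5 higher without replicate 1 of natural 2014 and 5 with library sizes alone. TIN1 had 75.0, 13.6 and 29.2 CPM in natural 2014 and 1.73, 1.25 and 1.40 CPM in natural 2013 (log2 fold change 4.71 ± 0.47, adjusted p = 2.4e-08; 3.84 without that library), and ERDJ3A, a co-chaperone of BIP, had 53.0, 7.43 and 15.6 CPM in natural 2014 and 1.27, 0.627 and 0.647 CPM in natural 2013 (log2 fold change 4.85 ± 0.53, adjusted p = 1.1e-07; 3.72 without it). These stood apart from the rest of the list, whose other called members lay at or below the 1.01 of BZIP28, a sensor of unfolded proteins. BZIP60, whose message is spliced when folding is overloaded, did not pass (-0.01 ± 0.18). Proteasome genes were higher in 6 of 16 cases (3 with library sizes alone), among them ANAC078 (1.53 ± 0.14) and the subunit RPN6 (0.83 ± 0.14). Of 15 autophagy genes none was higher and ATG8E (-1.15 ± 0.18) and ATG8F (-0.62 ± 0.14) were lower (4 lower with library sizes alone). Over all genes 16.5% were higher and 14.5% lower, so the number of autophagy genes called lower was near that share.

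Antioxidant genes were mixed. APX2, a cytosolic ascorbate peroxidase switched on by heat and strong light, had 306, 16 and 118 CPM in natural 2014 and 5.78, 1.25 and 0.216 CPM in natural 2013 (log2 fold change 5.88 ± 0.78, adjusted p = 5.4e-06; 4.75 without replicate 1 of natural 2014, and 7.80 and 5.27 without replicates 1 and 3 of natural 2013). APX1, the main cytosolic form, had 2656, 1443 and 2419 CPM in natural 2014 and 887, 941 and 966 CPM in natural 2013 (log2 fold change 1.22 ± 0.15, adjusted p = 9.3e-07). Catalases split, with CAT2 higher (0.81 ± 0.12) and CAT3 lower (-1.55 ± 0.11). Genes for galactinol and raffinose, sugars that protect cells under stress, were higher in 5 of 7 cases and lower in none. GOLS2, a galactinol synthase, had 25.0, 6.29 and 14.2 CPM in natural 2014 and 6.13, 4.70 and 4.21 CPM in natural 2013 (log2 fold change 1.58 ± 0.37, adjusted p = 0.0016), and MIPS2, which makes the inositol that feeds it, rose by 1.19 ± 0.21.

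The order of the natural 2014 libraries recurred. Among the 646 genes higher by at least 2-fold, 306 had replicate 1 highest and replicate 2 lowest, an order found in 18.4% of all genes tested. The other 5 orders held between 34 and 131 of these genes.

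Most genes of ultraviolet-B and high light responses were also higher in natural 2014. Of 31 tested members 20 were higher and 2 lower (17 to 19 higher with any 1 library left out), with a median of 0.59. HY5, the central light factor, had 95.5, 70.2 and 64.7 CPM in natural 2014 and 15.96, 16.5 and 19.1 CPM in natural 2013, with no overlap (log2 fold change 2.15 ± 0.14, adjusted p = 1.3e-11). UVR8, the ultraviolet-B receptor, did not pass (0.02 ± 0.11). CRY3, which repairs ultraviolet damage in organelle DNA, had 62.8, 59.4 and 58.9 CPM in natural 2014 and 20.5, 22.4 and 16.9 CPM in natural 2013 (log2 fold change 1.61 ± 0.12, adjusted p = 1.7e-10). ELIP2, a chloroplast protein made under excess light, had 1268, 787 and 822 CPM in natural 2014 and 59.4, 111 and 102 CPM in natural 2013 (log2 fold change 3.40 ± 0.23, adjusted p = 5.8e-11). All 3 natural 2014 libraries were above all 3 natural 2013 libraries for each of these called genes, a condition for naming CRY3 and ELIP2.

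BBX32, a B-box protein that holds back HY5-type signalling, had 118, 91.3 and 109 CPM in natural 2014 and 26.8, 22.2 and 20.8 CPM in natural 2013 (log2 fold change 2.19 ± 0.14, adjusted p = 1.9e-11). BBX22, a B-box partner of HY5, fell, with 7.43, 3.57 and 5.45 CPM in natural 2014 and 10.5, 18.6 and 14.5 CPM in natural 2013 (log2 fold change -1.41 ± 0.23, adjusted p = 2.6e-05). BBX25 fell too (-0.63 ± 0.14). Members of the B-box family thus moved both ways between years.

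Early steps of flavonoid synthesis rose nearly as a block, with 16 of 18 tested genes higher, none lower and a median of 1.40. Their summed expression was 5972, 6678 and 5391 CPM in natural 2014 and 2442, 2259 and 2427 CPM in natural 2013. F3H, the flavanone hydroxylase, had 1272, 1265 and 1085 CPM in natural 2014 and 214, 253 and 230 CPM in natural 2013 (log2 fold change 2.38 ± 0.14, adjusted p = 1.0e-11). CHI, chalcone isomerase, had 155, 171 and 135 CPM in natural 2014 and 35.4, 34.0 and 46.5 CPM in natural 2013 (log2 fold change 1.99 ± 0.14, adjusted p = 9.2e-11). FLS1, which makes flavonols, had 482, 506 and 403 CPM in natural 2014 and 121, 118 and 140 CPM in natural 2013 (log2 fold change 1.88 ± 0.14, adjusted p = 3.0e-10), and UGT78D2, which attaches glucose to them, rose by 2.167 ± 0.16. No library of one year overlapped the other in these 4 genes, a condition for naming them. F3'H, the branch towards other flavonoid types, did not pass (0.20 ± 0.45).

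Of 14 genes for late anthocyanin steps 3 were higher (1 without replicate 1 of natural 2013) and 2 lower, against 16.5% and 14.5% of all genes. Their median was 0.16, and -0.06 to 0.65 with 1 library left out. DFR, the first committed step, had 7.77, 3.57 and 4.39 CPM in natural 2014 and 1.73, 8.31 and 10.7 CPM in natural 2013 and did not pass (log2 fold change -0.41 ± 0.47, adjusted p = 0.55). MYBL2, a repressor of anthocyanin synthesis, had 0.676, 2.86 and 1.36 CPM in natural 2014 and 22.8, 21.5 and 21.4 CPM in natural 2013, and all natural 2014 libraries lay below all natural 2013 libraries (log2 fold change -3.69 ± 0.30, adjusted p = 1.2e-09; -4.39 without replicate 2 of natural 2014). TTG1, part of the activating complex, was lower (-0.58 ± 0.11), and CPC, a small MYB repressor, was higher (1.19 ± 0.31).

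**Figure D3:**
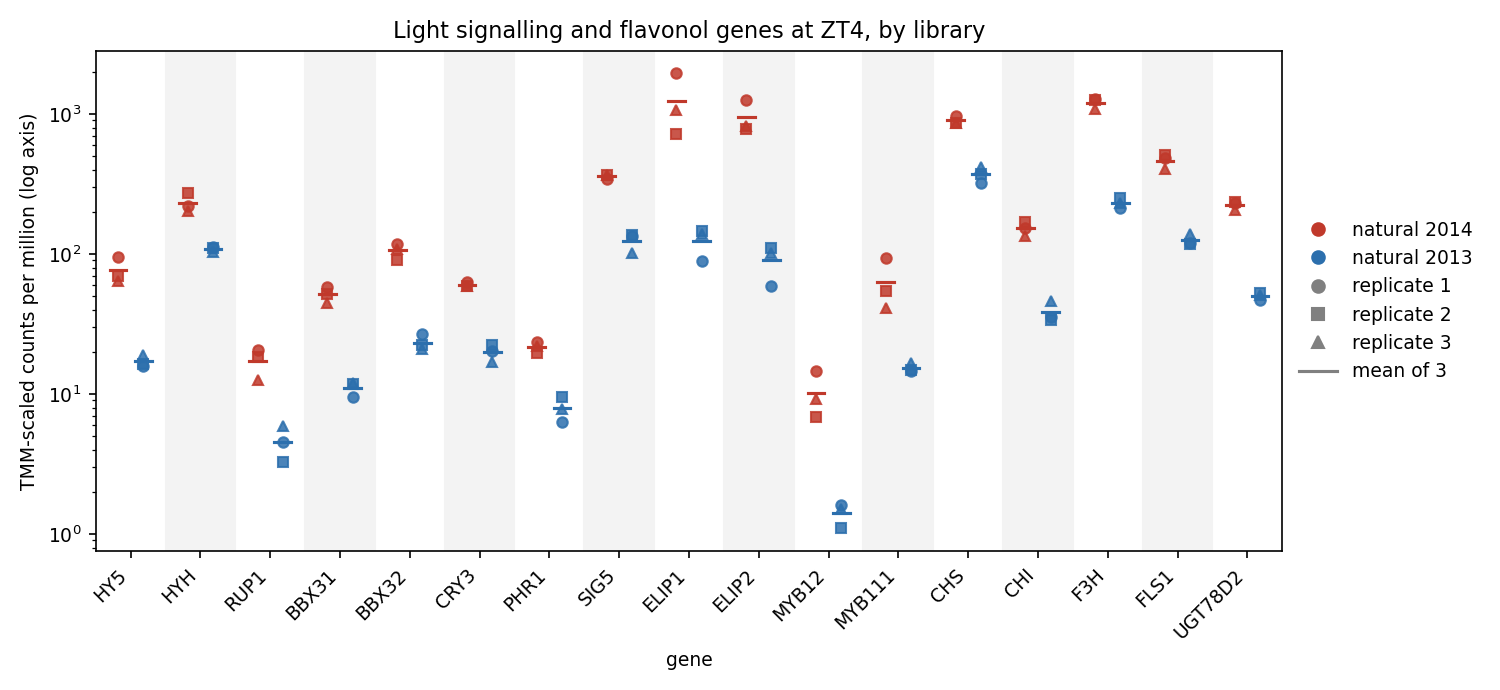
Light and flavonoid genes by library at ZT4: CPM on a log axis, natural 2014 left of natural 2013, with 1 point for each library. HY5, ELIP2, F3H and FLS1 have all natural 2014 libraries above all natural 2013 libraries.

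The G-box CACGTG, a palindrome bound by HY5 and by PIF factors, was counted in the same windows. It stood in 1407 of 18720 promoters (7.52%), in 99 of 640 genes higher by at least 2-fold (15.5%), in 65 of 1140 lower by at least 2-fold (5.70%) and in 925 of 12895 not called (7.17%). Of the ultraviolet-B and high light genes 5 of 31 held it, and of the early flavonoid genes 4 of 18. The window before F3H is shown as an example of a called gene with the box, in capitals, 244 bases from the gene start.
F3H, chr3:19024942-19025191, plus strand: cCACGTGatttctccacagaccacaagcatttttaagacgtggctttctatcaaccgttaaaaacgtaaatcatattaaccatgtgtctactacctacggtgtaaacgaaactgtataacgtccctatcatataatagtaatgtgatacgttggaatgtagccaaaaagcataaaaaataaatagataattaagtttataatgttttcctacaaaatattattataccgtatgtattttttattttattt

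Among flowering promoters 2 of 18 were higher and 5 lower (3 lower without replicate 1 or 2 of natural 2014 or replicate 3 of natural 2013), at a median of -0.11. Over all genes the shares were 16.5% higher and 14.5% lower. FT had 17.1, 27.6 and 31.1 CPM in natural 2014 and 15.6, 20.8 and 23.4 CPM in natural 2013, and its libraries overlapped (log2 fold change 0.34 ± 0.20, adjusted p = 0.22). Without replicate 1 of natural 2014 it just passed, at 0.55 (adjusted p = 0.046). CO, the day-length factor that activates FT, had 1.35, 0.714 and 0.757 CPM in natural 2014 and 0.116, 0.627 and 0.540 CPM in natural 2013 and did not pass (log2 fold change 1.144 ± 0.56, adjusted p = 0.13). SOC1, an integrator downstream of FT, had 63.7, 108 and 121 CPM in natural 2014 and 114, 90.74 and 111 CPM in natural 2013 (log2 fold change -0.11 ± 0.16, adjusted p = 0.66), and FKF1, the light sensor that stabilizes CO, was at -0.10 ± 0.20. Neither passed. GI, its partner, had 23.48, 20.4 and 16.7 CPM in natural 2014 and 9.83, 10.2 and 9.06 CPM in natural 2013, with no overlap (log2 fold change 1.06 ± 0.20, adjusted p = 2.4e-04).

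TSF, the close relative of FT, had 0, 0.429 and 1.21 CPM in natural 2014 and 1.04, 2.82 and 2.05 CPM in natural 2013 (log2 fold change -1.76 ± 0.57, adjusted p = 0.021). The groups overlapped and the call rested on single libraries. It was lost without replicate 1 or 2 of natural 2014 (adjusted p = 0.10 and 0.073) and without replicate 2 or 3 of natural 2013 (adjusted p = 0.09 and 0.058), and the value was -3.01 without replicate 3 of natural 2014. Of the 5 SPL factors tested, which promote flowering with age, SPL3 was lower, with 3.88, 6.71 and 5.91 CPM in natural 2014 and 11.2, 10.97 and 16.5 CPM in natural 2013 (log2 fold change -1.23 ± 0.27, adjusted p = 7.9e-04), as were SPL5 (-1.73 ± 0.43), SPL4 (-0.94 ± 0.31) and SPL9 (-0.74 ± 0.21). The groups of SPL4 overlapped, and its call was lost without replicate 1 or 2 of natural 2014 (adjusted p = 0.07 and 0.068) and without replicate 3 of natural 2013 (-0.39, adjusted p = 0.46). That of SPL9 was lost without replicate 1 of natural 2013 (adjusted p = 0.079). SPL15 was higher, with 6.59, 6.14 and 4.39 CPM in natural 2014 and 2.66, 2.19 and 1.62 CPM in natural 2013 (log2 fold change 1.40 ± 0.27, adjusted p = 2.1e-04).

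Of 21 floral repressors 9 were lower (14 with library sizes alone) and 1 was higher, at a median of -0.55. TEM1, which represses FT and gibberellin synthesis, had 0.507, 1.0 and 0.455 CPM in natural 2014 and 9.37, 10.03 and 14.7 CPM in natural 2013. TEM2, its partner, had 0.845, 3.71 and 0.455 CPM in natural 2014 and 12.5, 13.2 and 23.4 CPM in natural 2013. Both fell with no overlap (TEM1 log2 fold change -4.08 ± 0.57, adjusted p = 4.0e-06, and TEM2 log2 fold change -3.25 ± 0.53, adjusted p = 3.2e-05; TEM2 was at -4.67 without replicate 2 of natural 2014). FLC, the vernalization-sensitive repressor, had 2.196, 2.57 and 1.97 CPM in natural 2014 and 6.01, 4.86 and 5.40 CPM in natural 2013, again with no overlap (log2 fold change -1.27 ± 0.26, adjusted p = 3.7e-04). Antisense transcripts overlap FLC, and because the counting strand is not given in the sources used here these counts may hold either strand. SVP, which works with FLC, had 38.4, 45.9 and 53.9 CPM in natural 2014 and 74.8, 69.7 and 66.8 CPM in natural 2013 (log2 fold change -0.61 ± 0.12, adjusted p = 3.6e-04).

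Repressors of the CDF and TOE families were lower in part. CDF1 had 28.4, 43.1 and 31.4 CPM in natural 2014 and 46.4, 45.9 and 41.0 CPM in natural 2013 and did not pass (log2 fold change -0.37 ± 0.15, adjusted p = 0.057), although it did at -0.57 without replicate 2 of natural 2014. It also passed, at -0.37 to -0.54, with library sizes alone, after thinning, under voom, with a minimum of 5 CPM and with the 12 outdoor libraries. CDF3 fell (-1.10 ± 0.15). TOE1 and SNZ, of the AP2-type repressors, were lower (-0.87 ± 0.16 and -0.81 ± 0.17). ATC, a relative of TFL1, was the 1 repressor that was higher (log2 fold change 1.76 ± 0.40, adjusted p = 0.0012). FRI, an activator of FLC, did not pass (-0.10 ± 0.30).

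Clock genes moved both ways. Of 14 morning genes 5 were higher (3 with library sizes alone) and 5 lower (3 without replicate 1 of natural 2014 or any 1 library of natural 2013). CCA1 had 208, 228 and 240 CPM in natural 2014 and 212, 177 and 187 CPM in natural 2013 and did not pass (log2 fold change 0.23 ± 0.11, adjusted p = 0.11). LHY, its partner, had 453, 736 and 535 CPM in natural 2014 and 450, 383 and 424 CPM in natural 2013 (log2 fold change 0.46 ± 0.17, adjusted p = 0.048). That call was lost with any library but replicate 1 of natural 2014 left out, at adjusted p from 0.06 to 0.34, and with library sizes alone. It was also lost after thinning, with a minimum of 5 CPM and with the 6 libraries on their own (edgeR, adjusted p = 0.065, 0.080 and 0.059). LNK1, a coactivator of evening genes, had 168, 140 and 160 CPM in natural 2014 and 90.07, 80.2 and 75.4 CPM in natural 2013 (log2 fold change 0.93 ± 0.10, adjusted p = 6.1e-08). PRR9 rose (0.63 ± 0.13) while PRR7, the next pseudoresponse regulator of the day, fell (-0.87 ± 0.13). RVE1, which links the clock to auxin, fell as well (-1.05 ± 0.18). Of 13 evening genes LUX (1.06 ± 0.12) and GI were higher, CHE (-2.13 ± 0.14) was lower, COR27 was read 1 time in natural 2014 and 10 times in natural 2013, and TOC1 (-0.29 ± 0.24) did not pass. The evening list held 2 higher and 2 lower genes, near the shares of all genes, 16.5% higher and 14.5% lower.

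Growth genes of shade and warmth were mostly lower, with 13 of 21 lower and 1 higher and a median of -0.69. PIF4, the main growth factor of warmth, had 12.8, 10.6 and 10.4 CPM in natural 2014 and 28.9, 25.7 and 25.1 CPM in natural 2013, with no overlap (log2 fold change -1.24 ± 0.14, adjusted p = 3.3e-07). IAA29, an auxin-response gene that PIF factors switch on, had 2.196, 2.0 and 2.12 CPM in natural 2014 and 20.5, 17.55 and 13.3 CPM in natural 2013, also with no overlap (log2 fold change -3.01 ± 0.40, adjusted p = 1.8e-06). PAR2 (-1.76 ± 0.19) and HAT1 (-1.61 ± 0.19), further shade genes, fell too. UNE10, the PIF8 gene, was the exception (0.48 ± 0.13), a call lost with library sizes alone.

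Of 22 auxin response genes 12 were lower and 1 was higher, at a median of -0.72. IAA19 had 2.37, 2.71 and 2.58 CPM in natural 2014 and 10.5, 10.5 and 9.06 CPM in natural 2013 (log2 fold change -1.96 ± 0.28, adjusted p = 5.3e-06), and IAA3 and IAA4, repressors of the same family, fell (-1.42 ± 0.14 and -1.08 ± 0.12). IAA17 was higher, with a small change (0.48 ± 0.15) whose call was lost without replicate 2 or 3 of natural 2014, without replicate 2 of natural 2013 and with library sizes alone. The cytokinin response list had 6 of 9 members lower and none higher. ARR5, a feedback regulator induced by cytokinin, had 3.21, 5.0 and 3.33 CPM in natural 2014 and 11.7, 11.1 and 11.3 CPM in natural 2013 (log2 fold change -1.55 ± 0.20, adjusted p = 1.8e-06), and ARR15 and ARR9 fell (-0.91 ± 0.20 and -0.79 ± 0.15).

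Of 18 gibberellin genes 5 were higher (3 without replicate 1 of natural 2013) and 4 lower, at a median of -0.10. The shares over all genes were 16.5% and 14.5%. GA20OX1, a rate-setting synthesis enzyme, had 0.338, 0.143 and 0.303 CPM in natural 2014 and 1.97, 1.72 and 3.02 CPM in natural 2013, with no overlap (log2 fold change -3.10 ± 0.55, adjusted p = 8.5e-05). GA2OX1, which inactivates the hormone, had 2.70, 3.14 and 3.79 CPM in natural 2014 and 0.925, 1.097 and 0.540 CPM in natural 2013 (log2 fold change 1.94 ± 0.43, adjusted p = 0.001). Among the DELLA repressors RGL2 was higher (1.60 ± 0.21) and GAI lower (-0.76 ± 0.14). Of 17 brassinosteroid genes none was higher and 6 were lower, 2 without replicate 1 of natural 2013. BIN2, the kinase that blocks the pathway, was at -0.54 ± 0.12.

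**Figure D4:**
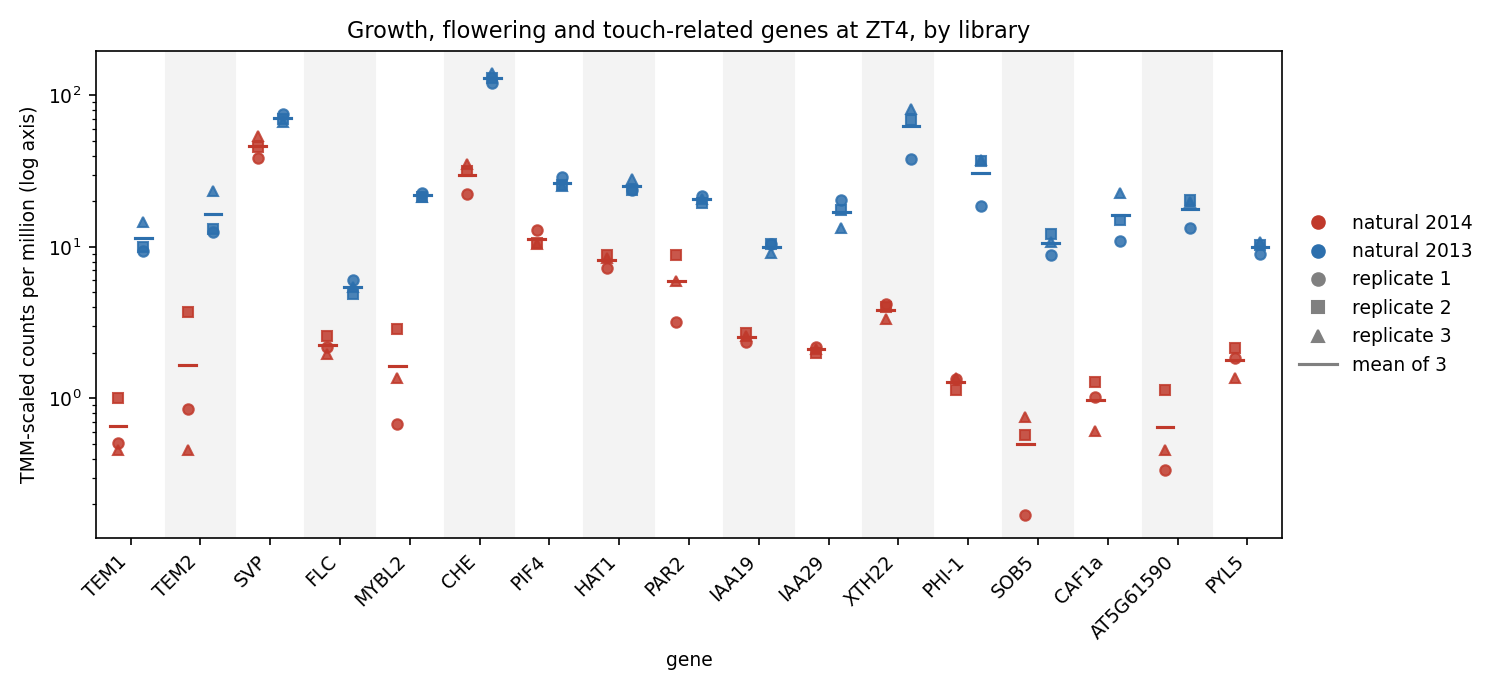
Genes lower in natural 2014 by library at ZT4: CPM on a log axis, natural 2014 left of natural 2013, with 1 point for each library. TEM1, PHI-1, IAA29 and PIF4 have all natural 2014 libraries below all natural 2013 libraries.

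Early genes of touch and wounding were lower in 12 of 16 cases and higher in none, at a median of -1.78 (7 lower without replicate 3 of natural 2013, and a median of -2.40 without replicate 2 of natural 2014). Their summed expression was 140, 157 and 128 CPM in natural 2014 and 310, 380 and 441 CPM in natural 2013. In the indoor settings at ZT4 it was 121.1, 120.5 and 148.4 CPM in LD+FR+TEMP and 313.1, 129.0 and 126.8 CPM in lab LD. At ZT16 it was 133.5, 126.0 and 213.4 CPM in natural 2014 and 143.6, 149.0 and 149.0 CPM in natural 2013. Every natural 2013 library at ZT4 exceeded all of these except lab LD replicate 1, while natural 2014 at ZT4 lay within their range. XTH22, a wall enzyme also known as TCH4, had 4.22, 4.0 and 3.33 CPM in natural 2014 and 38.1, 69.1 and 81.6 CPM in natural 2013 (log2 fold change -4.03 ± 0.51, adjusted p = 1.1e-06). ERF104, an ethylene response factor, was read 1 time in natural 2014 and 83 times in natural 2013, a ratio of 66.7 with a counting interval of 11.6 to 2670. ERF5 had 1.18, 2.0 and 0.455 CPM in natural 2014 and 3.58, 4.70 and 8.09 CPM in natural 2013 (log2 fold change -2.16 ± 0.40, adjusted p = 1.5e-04; -2.77 without replicate 2 of natural 2014), and TCH2, a calmodulin-like protein, fell (-1.16 ± 0.17).

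Genes of defence hormones were also called lower more often than higher, where 14.5% of all genes were lower and 16.5% higher. Of 15 salicylic acid genes 8 were lower and 1 was higher, at a median of -0.78 (-1.45 without replicate 1 of natural 2014). WRKY70, which favours salicylic acid over jasmonate, had 6.08, 6.57 and 5.91 CPM in natural 2014 and 15.5, 31.5 and 44.8 CPM in natural 2013 (log2 fold change -2.31 ± 0.42, adjusted p = 1.1e-04). PBS3, an enzyme of salicylic acid synthesis, was read 3 times in natural 2014 and 36 times in natural 2013, a ratio of 9.64 with a counting interval of 3.05 to 48.9. EDS5, the transporter of the precursor, fell (-1.81 ± 0.30; -2.41 without replicate 2 of natural 2014), ICS1, the first enzyme, did not pass (-0.18 ± 0.17), and PR5 was higher (0.76 ± 0.17).

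Jasmonate genes were lower in 6 of 22 cases and higher in 1, against 14.5% and 16.5% of all genes. JAZ6, a repressor of the pathway, had 8.11, 10.3 and 7.58 CPM in natural 2014 and 22.1, 26.96 and 29.4 CPM in natural 2013 (log2 fold change -1.59 ± 0.23, adjusted p = 6.0e-06). AOC1, a synthesis enzyme with near-identical copies, was at -1.60 ± 0.27, and LOX2, an early step, did not pass (0.09 ± 0.15). In the ethylene list ERF2 had 0.507, 0.857 and 0.151 CPM in natural 2014 and 1.97, 5.49 and 4.86 CPM in natural 2013 (log2 fold change -2.96 ± 0.70, adjusted p = 0.002; -3.62 without replicate 2 of natural 2014), and ACS6, which makes the ethylene precursor, fell (-1.72 ± 0.23). MYB51, a regulator of indole glucosinolates, had 0.338, 1.0 and 0.757 CPM in natural 2014 and 3.24, 3.605 and 4.32 CPM in natural 2013 (log2 fold change -2.37 ± 0.32, adjusted p = 2.6e-06), and 9 of 23 glucosinolate genes were lower, against 3 higher.

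Abscisic acid and drought genes were higher in 13 of 29 cases and lower in 4, at a median of 1.12. ABF3, a factor that switches on drought genes, had 144, 112 and 124 CPM in natural 2014 and 38.0, 37.8 and 29.8 CPM in natural 2013, with no overlap (log2 fold change 1.85 ± 0.17, adjusted p = 1.2e-08). HB-12 (1.71 ± 0.17) and ABF2 (1.13 ± 0.13) rose, as did HAB1, a phosphatase that damps the pathway (1.40 ± 0.13). The genes that fell were for hormone receptors or breakdown. PYL5, a receptor, had 1.86, 2.14 and 1.36 CPM in natural 2014 and 9.02, 10.3 and 10.8 CPM in natural 2013 (log2 fold change -2.48 ± 0.38, adjusted p = 1.7e-05), PYL4 was at -1.16 ± 0.27, and PYL6 was read 2 times in natural 2014 and 116 times in natural 2013, a ratio of 46.6 with a counting interval of 12.6 to 389. CYP707A3, which breaks the hormone down, was also lower (-1.90 ± 0.61). It was at -2.65 without replicate 2 of natural 2014, and the call was lost without replicate 3 of natural 2014 (-1.33, adjusted p = 0.10).

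Cold genes were mixed, with 5 of 14 higher and 3 lower, against 16.5% and 14.5% of all genes. CBF2, the cold-induced master factor, had 0.169, 0.572 and 0.151 CPM in natural 2014 and 2.31, 2.04 and 4.32 CPM in natural 2013 (log2 fold change -3.22 ± 0.62, adjusted p = 2.9e-04; -4.12 without replicate 2 of natural 2014). ERD10, a dehydrin of cold and drought, had 297, 209 and 308 CPM in natural 2014 and 153, 115 and 102 CPM in natural 2013 (log2 fold change 1.138 ± 0.19, adjusted p = 4.8e-05). RD29A, an often used cold and drought reporter, had 37.7, 82.2 and 101 CPM in natural 2014 and 71.5, 36.0 and 31.3 CPM in natural 2013 and did not pass (log2 fold change 0.67 ± 0.35, adjusted p = 0.16), though it did without replicate 1 of natural 2014 (0.97) or of natural 2013 (1.136).

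Iron deficiency genes were higher in 10 of 18 cases and lower in 1 (6 and 3 with library sizes alone), at a median of 0.96. The higher genes numbered 6 without replicate 1 or 2 of natural 2014 or replicate 1 of natural 2013. IRT1, the root iron transporter, had 14.7, 12.7 and 18.03 CPM in natural 2014 and 2.77, 2.98 and 0.432 CPM in natural 2013 (log2 fold change 2.94 ± 0.46, adjusted p = 1.7e-05). FRO2, the ferric reductase at the root surface, had 20.1, 11.1 and 16.1 CPM in natural 2014 and 2.197, 2.51 and 1.19 CPM in natural 2013 (log2 fold change 3.03 ± 0.37, adjusted p = 6.9e-07). The groups did not overlap for either. PYE, a regulator of the response, rose by 1.55 ± 0.21, and NAS2, a nicotianamine synthase, by 2.80 ± 0.49 (3.57 without replicate 1 of natural 2013). The evening median of the same genes was 1.21.

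The root marker list, read to see whether root tissue differed, had 1 of 12 tested members lower (0 to 2 with 1 library left out) and none higher, at a median of -0.61. Its summed expression was 279, 309 and 266 CPM in natural 2014 and 388, 337 and 287 CPM in natural 2013. Its part in the iron result was not tested. None of 6 floral organ markers and neither of the seed storage genes tested passed.

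Of 14 nitrate genes 4 were higher and 3 lower (5 lower without replicate 2 of natural 2014 or with library sizes alone), at a median of -0.12. The shares over all genes were 16.5% and 14.5%. NIR1 (0.60 ± 0.13) and GLN2 (0.62 ± 0.09), which carry nitrite on to ammonium and glutamine, were higher. NIA2, the nitrate reductase, had 166, 477 and 211 CPM in natural 2014 and 597, 482 and 548 CPM in natural 2013 (log2 fold change -0.93 ± 0.23, adjusted p = 0.0032; -1.53 without replicate 2 of natural 2014). The transporter NRT1.1 was lower (-0.73 ± 0.12). In the phosphate list PAP17, a phosphatase, was higher (1.68 ± 0.20) and MGD3, which makes galactolipids, was lower (-1.49 ± 0.37), with 3 of 15 genes in each direction (1 higher without replicate 1 of natural 2014 and 5 without replicate 3). The phosphate list had a median of 0.02, and its calls were near the shares over all genes, 16.5% and 14.5%.

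Photosynthesis genes were lower in 16 of 31 cases and higher in 5, at a median of -0.32. The antenna genes made up most of the falls. LHCB2.1 had 3519, 4129 and 4945 CPM in natural 2014 and 7795, 7302 and 6759 CPM in natural 2013 (log2 fold change -0.80 ± 0.11, adjusted p = 4.5e-06), LHCB3 was at -0.62 ± 0.12 and LHCA4 at -0.66 ± 0.12. Rubisco genes went the other way, with RBCS1A at 0.42 ± 0.11 and Rubisco activase, RCA, at 0.30 ± 0.09. The LHCB and RBCS families hold near-identical copies. These are small differences, and scaling matters to them: with library sizes alone RCA was at 0.13 and RBCS1A at 0.25.

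CHLH, a subunit of magnesium chelatase, at the branch towards chlorophyll, rose (0.55 ± 0.10), and CAO, which makes chlorophyll b, fell (log2 fold change -0.92 ± 0.14, adjusted p = 9.2e-06). GLK2, an activator of chloroplast genes, fell too (-1.34 ± 0.10). Starch genes were higher in 10 of 21 cases and lower in 3 (7 and 4 with library sizes alone, and 1 lower without replicate 2 of natural 2014). BAM1, a starch-degrading amylase active under stress, had 281, 157 and 208 CPM in natural 2014 and 91.5, 84.0 and 66.8 CPM in natural 2013 (log2 fold change 1.42 ± 0.16, adjusted p = 2.0e-07), and GBSS1, a starch synthase under clock control, had 263, 310 and 355 CPM in natural 2014 and 174, 185 and 139 CPM in natural 2013 (log2 fold change 0.90 ± 0.15, adjusted p = 4.6e-05). In the sugar starvation list TPS8 (-1.65 ± 0.29) and TPS11 (-1.25 ± 0.30) fell while ASN1, asparagine synthetase, rose (1.1 ± 0.30).

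Aquaporin genes were higher in 10 of 19 cases and lower in 1. PIP2;3 had 491, 126 and 193 CPM in natural 2014 and 41.4, 38.9 and 34.6 CPM in natural 2013 (log2 fold change 2.82 ± 0.29, adjusted p = 3.9e-08; 2.06 without replicate 1 of natural 2014), and PIP2;2, a near-identical copy next to it in the genome, had 433, 223 and 255 CPM in natural 2014 and 152, 130 and 107 CPM in natural 2013 (log2 fold change 1.23 ± 0.17, adjusted p = 3.6e-06). TIP1;1, of the vacuole membrane, rose by 1.12 ± 0.17. Wall loosening genes were lower in 7 of 19 cases and higher in 3 (9 and 0 with library sizes alone, and 1 higher without replicate 2 of natural 2014), among the lower EXPA8, an expansin, with 4.05, 14.6 and 16.8 CPM in natural 2014 and 57.8, 31.3 and 32.3 CPM in natural 2013 (log2 fold change -1.76 ± 0.30, adjusted p = 5.5e-05). Of 18 cell division genes 4 were higher (1 with library sizes alone or without replicate 3 of natural 2014, and 2 without replicate 2 of natural 2014 or replicate 1 of natural 2013) and none lower, with TSO2, a subunit of the enzyme that makes DNA building blocks, at 0.77 ± 0.17. The share of all genes that were higher was 16.5%. In the cuticle list CER1, a wax enzyme, rose (log2 fold change 1.25 ± 0.20, adjusted p = 2.1e-05) and KCS1, which lengthens fatty acids, fell (log2 fold change -1.47 ± 0.11, adjusted p = 1.5e-10).

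Of the 12 largest rises over all genes, 11 were genes of the heat lists. The other, AT1G71000, was read 127 times in natural 2014 and 0 times in natural 2013, at least 52.7-fold higher against a floor of 3 counts over the group. PHI-1, a phosphate-induced protein, had 1.35, 1.143 and 1.36 CPM in natural 2014 and 18.5, 36.7 and 37.5 CPM in natural 2013 (log2 fold change -4.58 ± 0.62, adjusted p = 2.7e-06). RAV1, a relative of TEM1, had 0.507, 1.43 and 0.151 CPM in natural 2014 and 12.1, 11.4 and 16.3 CPM in natural 2013 (log2 fold change -4.21 ± 0.56, adjusted p = 2.1e-06; -5.35 without replicate 2 of natural 2014). SOB5, linked to cytokinin level, had 0.169, 0.572 and 0.757 CPM in natural 2014 and 8.79, 12.2 and 10.8 CPM in natural 2013 (log2 fold change -4.34 ± 0.44, adjusted p = 3.2e-08), and CAF1a, which shortens poly(A) tails, had 1.01, 1.29 and 0.606 CPM in natural 2014 and 10.9, 15.1 and 22.8 CPM in natural 2013 (log2 fold change -4.05 ± 0.44, adjusted p = 8.7e-08). All natural 2014 libraries lay below all natural 2013 libraries for these 4 falls, a condition of the rule that named them.

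Fewer genes were called in the evening. At ZT16, in the same fit, 531 genes were higher (2.82%) and 438 lower (2.33%) in natural 2014 than in natural 2013. Genes called at both times numbered 202 higher in both and 193 lower in both, while 67 were higher at ZT4 and lower at ZT16, and 68 the reverse. The difference of the 2 year effects itself passed the test in 1652 genes whose morning value was the larger (8.79%) and 1559 whose morning value was the smaller (8.29%). The libraries of the 2 times are separate, so this test shares none between its 2 year effects.

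Chaperones were among the genes whose year difference depended on the time of day. HSP101 had 6.56, 4.86 and 5.30 CPM in natural 2014 and 6.36, 3.48 and 3.76 CPM in natural 2013 at ZT16, and those evening groups lay far below the morning values of natural 2014. The morning minus evening difference was 6.20 ± 0.85, adjusted p = 1.1e-05. All 24 large chaperones and 11 of 15 co-chaperones passed this test in the same direction. The summed small heat shock proteins were 411, 177 and 223 CPM in natural 2014 and 132, 123 and 143 CPM in natural 2013 at ZT16. Of 18 small heat shock protein genes 7 had a larger morning value by this test and 1 a smaller one, and 10 did not pass. HSFA2 did not pass it (6.82 ± 2.72, adjusted p = 0.088), but it did at 6.79 with the replicate block (adjusted p = 0.035), at 6.84 under DESeq2 (adjusted p = 1.4e-07), and at 6.2 and 7.18 without replicate 1 or replicate 2 of natural 2014 at ZT4 (adjusted p = 0.037 and 0.016). HSP18.2 was called higher in the evening too, at 4.26 ± 0.71, adjusted p = 6.6e-04 (log2 fold change, edgeR).

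Other groups differed in how they carried over. Of the early flavonoid genes 13 of 18 had a larger morning value, with an evening median of -0.20. HY5 differed between times by 2.60 ± 0.22, adjusted p = 1.4e-08, and PIF4 by -1.64 ± 0.25, adjusted p = 4.5e-05. For FT, CO, SOC1 and FLC the difference between times was not called. That of FT passed at 0.95 without replicate 1 of natural 2014 at ZT4 (adjusted p = 0.021, edgeR) or without replicate 3 of natural 2014 at ZT16 (adjusted p = 0.036), and that of SOC1 passed at 0.67 without replicate 1 of natural 2014 at ZT4 (adjusted p = 0.012). Of the iron genes, 9 of 18 were higher at ZT16, and the morning value was called larger in 2 and smaller in 1.

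**Figure D5:**
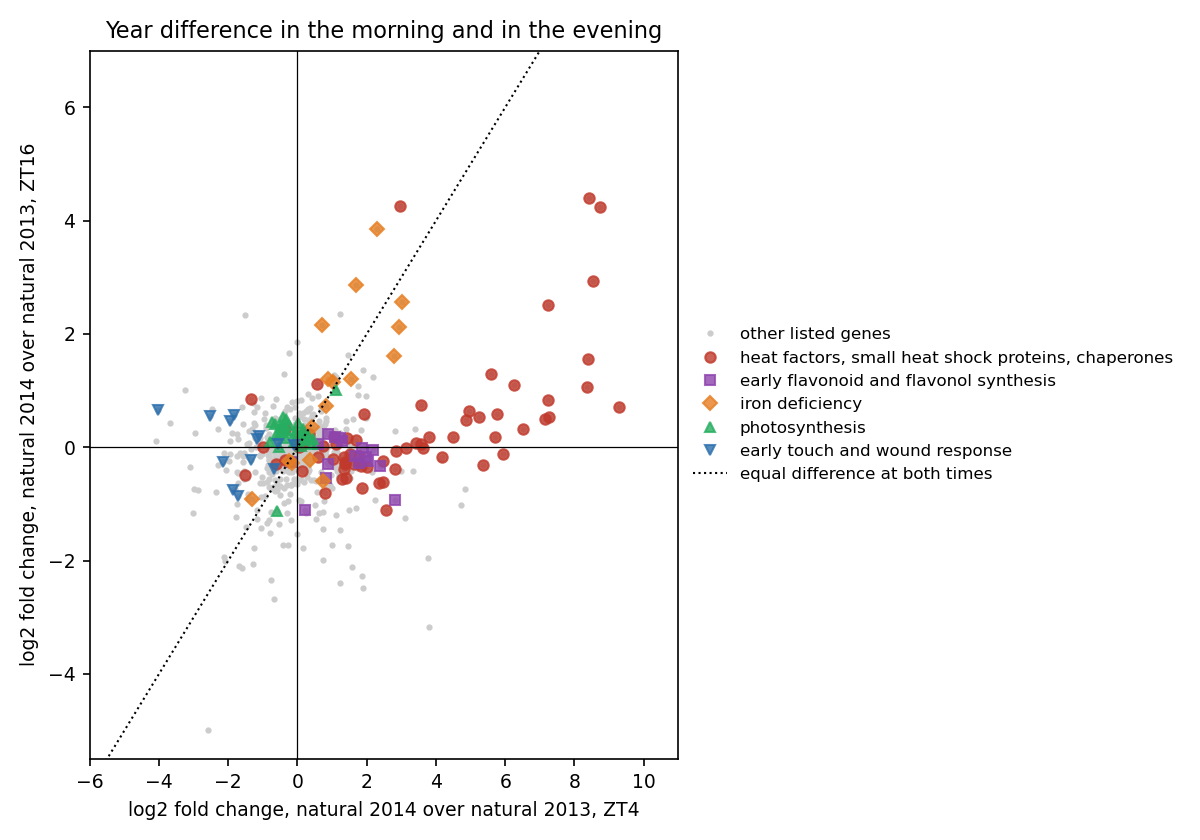
Year difference in the morning and in the evening: each point is a gene of the lists, with its log2 fold change of natural 2014 over natural 2013 at ZT4 on the horizontal axis and at ZT16 on the vertical axis. Genes drawn had a mean of at least 0.15 CPM in both years at ZT16. Genes with 3 counts or fewer in either group at ZT4, HSP23.6, PYL6 and ERF104 among them, are not drawn. Most heat shock genes spread far to the right at evening values near 0, some small heat shock proteins lie higher, and iron genes lie to the upper right.

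Indoor seedlings at ZT4 give a level for the heat genes without outdoor weather. HSFA2 averaged 1.02 ± 0.263 CPM in LD+FR+TEMP and 1.37 ± 0.592 CPM in lab LD (SD, 3 libraries each), and HSP101 averaged 5.14 ± 0.132 CPM in LD+FR+TEMP and 6.52 ± 0.235 CPM in lab LD (SD). The summed small heat shock proteins, over the same 18 genes, were 73.3, 72.1 and 77.2 CPM in LD+FR+TEMP and 112, 84.2 and 86.7 CPM in lab LD. In these sums every natural 2014 library exceeded all 6 of these libraries, and so did every natural 2013 library, at 207, 154 and 140 CPM. The temperature programme of LD+FR+TEMP stood at 17.9 °C at ZT4, and the outdoor temperature was not analysed here.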

How the data were processed

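Polyadenylated RNA of whole seedlings was read near the 3′ end of transcripts, per the labels' protocols. The authors deposited 1 file of whole-number read counts for each library, covering 48359 transcript models, which were summed here to 27655 loci by the locus before the dot. Tools named in the submitters' processing notes are bcl2fastq 2.17.1.14 and Trimmomatic 0.36 besides Bowtie2 and edgeR, and the build is TAIR10, while the counting step, its strand and its handling of reads that match several genes are not given in the sources used here. No row lacked a gene and 0 columns were left unused. No 2 libraries were identical.

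Groups came from the sample titles, 3 libraries each. In R 4.3.3 with edgeR 4.0.16, genes kept by filterByExpr (minimum count 10, minimum total count 15) numbered 18797. TMM scaling and 1 quasi-likelihood model with a mean for each of the 8 groups over all 24 libraries gave a common dispersion of 0.0143, a biological coefficient of variation of 0.119. The year difference at ZT4 and its difference from that at ZT16 went through edgeR's quasi-likelihood test, with Benjamini-Hochberg adjustment across the 18797 genes and a threshold of 0.05. Standard errors were taken as the log2 fold change over the root of F. Principal components used log2 CPM with a prior count of 2. On simulated counts of 18525 genes, 81% of genes changed by 1 and 100% of those changed by 2 on the log2 scale were recovered at ZT4, and 40% and 99% for the difference between times. The simulation changed 100 well-counted genes of each size and gave every gene the same dispersion. It lacked the wide spread of heat genes in natural 2014, so these shares are not the power for such genes.

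The comparison, its 45 gene lists (828 members, of which 9 could not be matched) and the tests were chosen with earlier results of these data known, so no list is given a test or an adjusted p of its own. Each list is described by its calls and median. Named from each list were up to 4 higher and 4 lower genes with the smallest adjusted p with separate libraries, the first listed tested member short of the threshold, any member of the heat and flowering lists, HY5, PIF4, CCA1 and LHY, and over all genes the 12 largest changes in each direction with at least 5 CPM in the higher group. COR27, PYL6, PBS3 and ERF104 are given by counts. Where a group held 3 counts or fewer, counts are printed with an exact 95% interval of their ratio, or a bound at 3 counts over the group, and both cover counting error only. Names came from a RefSeq table of TAIR10.1, with 27445 loci matched and 210 organelle loci unmatched. Promoter windows were read from the TAIR10.1 genome. Alternatives were DESeq2 1.42.0, limma 3.58.1 voom with quality weights, other scalings, filters, fits and depths, a replicate block, and each library left out.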

Additional observations from a re-analysis of the deposited data

Results flagged for a closer look

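The year difference itself differed between morning and evening in 1652 genes whose ZT4 value exceeded the ZT16 value and in 1559 where it lay below, by edgeR's quasi-likelihood test of that difference. Values here are the log2 fold change of natural 2014 over natural 2013 at ZT4 minus that at ZT16. Among heat genes the difference was 6.20 for HSP101 (5.15 without replicate 1 of natural 2014 at ZT4), 6.72 for HSP90.1 (5.69), 8.56 for AT1G07400 (6.98) and 6.66 for ROF2 (5.45). HY5, the light factor, had 2.60, and PIF4, the growth factor, had -1.64.

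AT5G51440, a small heat shock protein, had 7.29, a call lost without replicate 1, 2 or 3 of natural 2013 at ZT16, replicate 3 of natural 2013 at ZT4 or replicate 2 of natural 2014 at ZT16 (adjusted p = 0.051 to 0.13). AT1G71000 had a fitted 10.05, which depends on the prior count because natural 2013 held 0 counts at ZT4, and its call was lost without replicate 1 or 3 of natural 2013 at ZT16. AT5G54165 had 6.47, with an adjusted p up to 0.19 when 1 library was left out.

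Among the genes whose morning value was the smaller, PHI-1 had -5.40 and the wall enzyme XTH22 had -4.69, and these were -4.38 and -4.03 without replicate 3 of natural 2014 at ZT16. AT5G61590 had -4.90, SOB5 had -4.78, CAF1a had -4.77 and RTFL12, of a family of small peptides, had -4.77.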

How the results depend on the processing

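Depth, scaling and single libraries set the limits. Against 3110 genes higher and 2724 lower in natural 2014, library sizes alone gave 1790 and 4277, and asking for at least 2-fold gave 646 and 1140. Leaving out 1 library gave 2482 to 2867 higher and 2124 to 2597 lower. Thinning every library to the smallest gave 2443 and 2167, DESeq2 3085 and 2442, voom 3140 and 2457, and the 6 libraries on their own 2491 and 2415. RLE scaling, both filters on low counts and the 12 outdoor libraries kept both counts within 1.5 times. For the difference between times, against 1652 and 1559, leaving out 1 library gave 1327 to 1601 and 1231 to 1608, and thinning gave 1221 and 1135. Of 151 called genes that the text gives a fold change for, 140 kept call and direction in every alternative. The others were LHY, TSF, SPL4, SPL9, IAA17, CYP707A3, RCA and UNE10, described above, CPC (adjusted p = 0.074) and MGD3 (adjusted p = 0.12) after thinning, and HSP22.0 (adjusted p = 0.088) under voom. The cause was not tested.

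No called gene changed direction. Of the genes that did not pass, UVR8 was at -0.16 with library sizes alone, -0.049 with a minimum of 5 CPM, -0.011 with the 12 outdoor libraries and -0.008 with the 6 libraries, LOX2 at -0.080 with library sizes alone, BZIP60 at 0.049 and F3'H at -0.024 under voom. With 1 library left out, ranges that took in both signs were -0.067 to 0.09 for UVR8, -0.079 to 0.24 for LOX2, -0.15 to 0.11 for BZIP60, -0.35 to 0.56 for F3'H, -0.28 to 0.086 for FRI, -0.90 to 0.14 for DFR and -0.30 to 0.11 for SOC1.

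Replicate numbers did not pair the libraries: deviations of same-numbered libraries correlated at -0.024, -0.026 and -0.012. With the replicate number as a block 3029 genes were higher and 2657 lower (1604 and 1508 for the difference between times), and of the genes described only LHY lost its call (adjusted p = 0.058), while the difference between times of HSFA2 gained one.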
